A study of Mus musculus with 18 samples.

Results

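The genes described here encode the interferon regulatory factors, a family of transcription factors. They were taken as the probe sets whose platform annotation names only Irf1, Irf2, Irf3, Irf4, Irf5, Irf7, Irf8 or Irf9, and these 8 genes, with 14 probe sets, were 8 of 18193 annotated genes on the array. The cells were RAW264.7, an established mouse macrophage cell line, and RNA from 18 samples was measured on Affymetrix Mouse Genome 430 2.0 arrays, 3 for each of 6 groups. The vehicle group received 0.1% DMSO in medium. The fraction group received 10 ug/mL of a sub-fraction of St John's wort (Hypericum perforatum). The mixture group received amentoflavone at 0.07 uM, quercetin at 0.08 uM, chlorogenic acid at 0.2 uM and pseudohypericin at 0.03 uM. Another set of the same 3 treatments was combined with lipopolysaccharide (LPS), the bacterial product sensed by Toll-like receptor 4, at 10 ug/mL. All cultures were treated for 8 h, and all had 30 min of ambient light after dosing in the dark. The comparisons ask how the family responded to LPS, to the fraction and to the mixture. All samples came from 1 immortalized line, and the labels do not say whether the arrays of a group were separate cultures. The p-values therefore measure the spread between these arrays, which may be technical in part.

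Interferon regulatory factors share a DNA-binding domain that reads repeats of the bases GAAA in interferon response elements. In macrophages that sense LPS, the kinases Tbk1 and Ikbke activate the protein Irf3, which helps to switch on the interferon gene Ifnb1. Secreted interferon then acts through JAK kinases and ISGF3, a complex that holds Stat2 and Irf9 and induces many antiviral genes and Irf7 itself. Irf1 is an activator induced by interferons, Irf2 is best known as its antagonist on shared elements, Irf5 serves inflammatory cytokine genes, and Irf8 belongs to the macrophage lineage programme. Several of these proteins are controlled by phosphorylation, which an RNA measurement does not show.

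The values were MAS5 signal intensities, with array medians between 52.1 and 66.8. Correlations of arrays within a group lay between 0.970 and 0.979. Of 12 macrophage markers, 11 lay above the array median on all 18 arrays, and Mertk lay below it on all. None of 29 measured markers of other cell types lay above the median on all arrays, and 15 lay below it on every array. Their summed intensity was 694 to 811 in the vehicle group and 868 to 1096 with added LPS. It was 609.9 to 771 and 687 to 1157 in the fraction groups, and 749 to 1058 and 839.8 to 999 in the mixture groups. Its part in the results was not tested. In a cell population, fewer expressing cells and less RNA in each cell cannot be told apart.

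The promoters of Irf1, Irf2 and Irf8 are shown because these genes moved in different ways and because only their windows held the motifs searched for. Each window is RefSeq sequence of build GRCm38.p6, from 250 bases before to 50 bases after a transcript start, read 5′ to 3′ on the plus strand. All 8 genes had at least 1 such window, 11 in all. Capitals mark matches to the interferon response element (GAAA, any 2 bases, GAAA), the STAT element TTCNNNGAA and the NF-kB consensus, each searched on both strands. The windows lie at chr11:53769764-53770063 for Irf1, chr8:46739495-46739794 for Irf2 and chr8:120736108-120736407 for Irf8.
Irf1 promoter: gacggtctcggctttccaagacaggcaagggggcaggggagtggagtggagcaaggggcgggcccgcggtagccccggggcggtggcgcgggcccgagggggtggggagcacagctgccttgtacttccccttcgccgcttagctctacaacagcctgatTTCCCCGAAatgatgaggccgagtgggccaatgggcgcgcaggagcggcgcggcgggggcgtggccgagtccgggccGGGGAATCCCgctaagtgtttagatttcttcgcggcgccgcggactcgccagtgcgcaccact
Irf2 promoter: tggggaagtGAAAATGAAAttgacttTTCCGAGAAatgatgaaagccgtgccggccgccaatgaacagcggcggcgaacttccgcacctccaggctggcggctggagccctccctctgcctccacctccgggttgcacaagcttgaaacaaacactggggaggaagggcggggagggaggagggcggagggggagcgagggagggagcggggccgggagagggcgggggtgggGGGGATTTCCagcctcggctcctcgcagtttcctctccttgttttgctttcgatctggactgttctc
Irf8 promoter: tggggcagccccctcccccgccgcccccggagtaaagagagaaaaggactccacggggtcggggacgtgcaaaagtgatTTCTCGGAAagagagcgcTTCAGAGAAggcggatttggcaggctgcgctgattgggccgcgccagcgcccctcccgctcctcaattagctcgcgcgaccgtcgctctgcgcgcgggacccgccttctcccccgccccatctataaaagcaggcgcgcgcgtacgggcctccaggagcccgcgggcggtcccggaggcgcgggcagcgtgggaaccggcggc
Irf1 held a STAT element 90 to 82 bases before the start and the NF-kB consensus 13 to 4 bases before it. Irf2 held an interferon response element 241 to 232 bases, a STAT element 224 to 216 bases and the NF-kB consensus 17 to 8 bases before its start. Irf8 held STAT elements 171 to 163 and 153 to 145 bases before its start. Irf1 and Irf8 each had a further window, at another transcript start, which held no match and is not shown. Across 32851 promoter windows of the same length, 3.44% held the interferon response element, 8.30% the STAT element and 8.46% the NF-kB consensus. The shorter form GAAANNGAA was in 8.56% of windows and, among the members, in Irf2. These matches describe letters in the window and are not measured binding sites, and the windows of Irf3, Irf4, Irf5, Irf7 and Irf9 held none.

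Of the 8 members, 7 were bright enough to be tested: Irf1, Irf2, Irf3, Irf5, Irf7, Irf8 and Irf9, while Irf4 stayed near background. In vehicle cells LPS raised 1 of the 7 (Irf7), with a median log2 difference over the 7 of 0.27 against -0.07 over all 11547 genes tested. Of all genes, 10.1% rose and 21.8% fell in that comparison, by an adjusted p under 0.05 in limma. In fraction-treated cells LPS raised 4 (Irf1, Irf7, Irf8 and Irf9) and lowered 1 (Irf5), where 11.5% of genes rose and 25.8% fell. In mixture-treated cells LPS raised 3 (Irf1, Irf7 and Irf9), where 8.32% rose and 16.3% fell. The count of members for vehicle cells was 4 with quantile normalization and 4 with a term for replicate number in the model, each time 3 raised and Irf5 lowered. It was 0 with arrays centred on the median of all probe sets and 4 with arrays centred on the median of the kept probe sets. These 2 centrings moved the median of all genes by -0.14 and 0.12. Of all genes called for LPS in vehicle cells, 31.5% were higher, against 18.5% and 52.3% under the 2 centrings. Centring on kept probe sets also raised that share from 30.9% to 55.4% in fraction-treated cells and from 33.8% to 51.7% in mixture-treated cells. No called member changed direction under any scaling run.

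Against vehicle, the fraction lowered members and raised none on the brightest probe set of each gene. Without LPS it lowered 4 (Irf1, Irf2, Irf7 and Irf9), with a median log2 difference over the 7 of -0.40 against 0.02 over all genes; 15.9% of genes rose and 15.3% fell. Of the called genes, 50.9% were higher, against 32.4% and 37.1% with centring on all and on kept probe sets. With LPS the fraction lowered 2 (Irf2 and Irf5), where 11.1% of genes rose and 12.7% fell. The Irf5 calls, here and in the other comparisons, rest on the brighter of its probe sets. They were lost with the mean of both (adjusted p from 0.16 to 0.77, limma). For the mixture against vehicle, 0 of 7 members were called in either state by limma. At an unadjusted p under 0.05 there were 0 members without LPS and 1 (Irf8) with LPS. Of all genes, 0% were called for the mixture in either state, and 565 and 934 genes had an unadjusted p under 0.05 without and with LPS. The result with LPS depended on 1 array. Without vehicle plus LPS replicate 1, Irf8 was called lower (log2 difference -1.12 ± 0.21, adjusted p = 0.0096, limma) and 191 genes were called. The LPS comparison in vehicle cells and the fraction comparison without LPS share the 3 vehicle arrays, so their values are not independent. The 3 fraction arrays without LPS likewise enter LPS in fraction-treated cells, the fraction without LPS and its comparison with the mixture. Irf1, Irf7 and Irf9 were called in each of these, so those calls are not separate findings.

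Set directly against the mixture, the fraction gave lower signals for 4 members without LPS (Irf1, Irf3, Irf7 and Irf9), where 17% of genes were higher and 15.4% lower. Of the genes called there, 52.4% were higher, and 36.5% with centring on kept probe sets. With LPS it gave lower signals for 3 (Irf1, Irf2 and Irf5) and a higher signal for Irf8, where 12% were higher and 16.2% lower. The difference in LPS response between fraction and vehicle cells passed the threshold for 0 of 7 members and for 2.14% of genes, with 1 member (Irf9) at an unadjusted p under 0.05. Of the genes called, 41.7% were positive, and 67.4% with centring on all probe sets. The same test for the mixture gave 0 members and 0% of genes, with 0 members and 412 genes at an unadjusted p under 0.05.

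**Figure D1:**
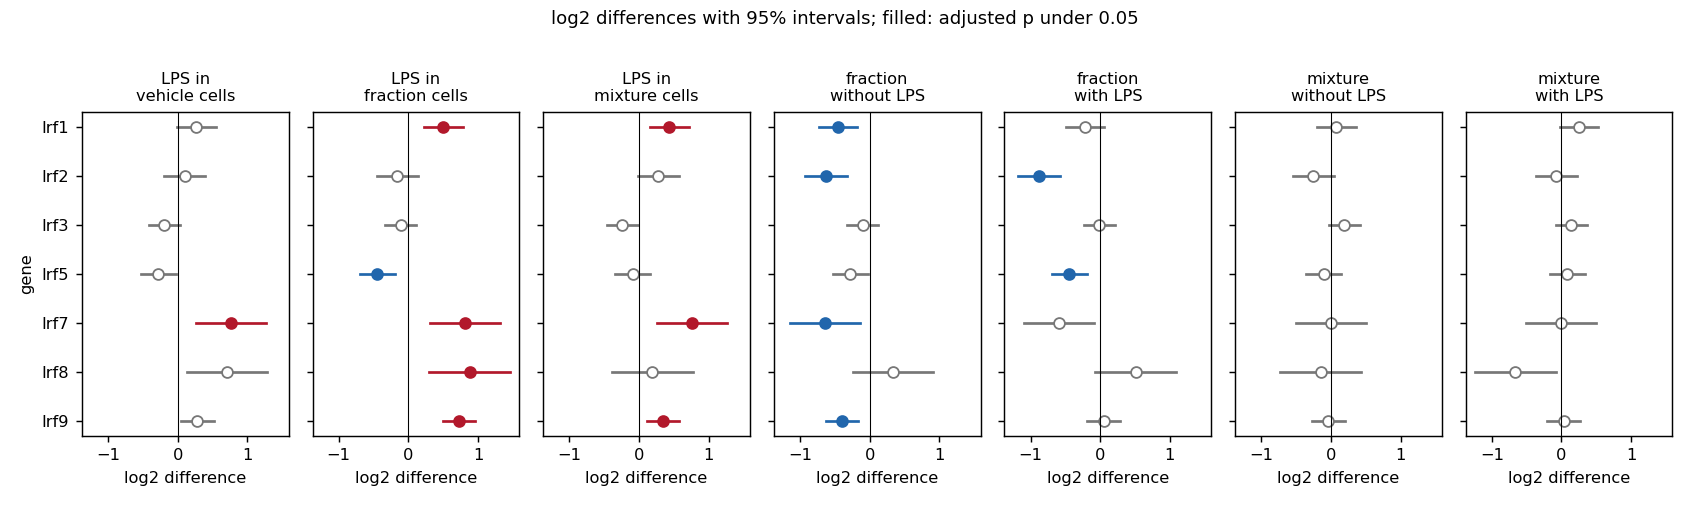
The x axes give log2 differences for LPS in each treatment and for fraction or mixture against vehicle, with 95% intervals from limma; the 7 tested genes are rows, and filled points have an adjusted p under 0.05. Irf7 is filled in all 3 LPS panels, Irf2 is filled in both fraction panels, and neither mixture panel has a filled point.

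Irf1 activates antigen-processing and inflammatory genes. Its signal was 720.3, 849 and 807 on the 3 vehicle arrays, 574, 661 and 506 with the fraction, and 817, 883 and 810.4 with the mixture. With LPS it was 1090.2, 853 and 927 in vehicle cells, 672, 988 and 822 in fraction-treated cells, and 1133, 1057 and 1210.3 in mixture-treated cells. All 3 fraction arrays without LPS lay below every other array. LPS raised Irf1 by a log2 difference of 0.50 ± 0.13 (standard error) in fraction-treated cells, or 1.42-fold, and by 0.44 ± 0.13 in mixture-treated cells (adjusted p = 0.0053 and 0.020, limma). In vehicle cells the LPS difference was 0.27 ± 0.13 (adjusted p = 0.14), although the LPS arrays did not overlap the vehicle arrays. The fraction without LPS gave a 1.37-fold lower signal than vehicle (log2 difference -0.45 ± 0.13, adjusted p = 0.013) and a 1.45-fold lower one than the mixture (adjusted p = 0.0040). With LPS the fraction differed from vehicle by -0.22, with a 95% interval of -0.50 to 0.06 (adjusted p = 0.26), and from the mixture by -0.47 ± 0.13 (adjusted p = 0.012).

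In order of mean level, Irf1 ran from mixture plus LPS through vehicle plus LPS, mixture, fraction plus LPS and vehicle down to fraction, and of these neighbours only vehicle and fraction did not overlap. Its LPS rise in fraction-treated cells and its fall against the mixture without LPS passed under all 19 alternatives run. The fall against vehicle was not called without vehicle replicate 2 or fraction replicate 3 (adjusted p = 0.055 and 0.069). The rise in mixture-treated cells was lost without mixture replicate 1 or 3 or mixture plus LPS replicate 3 (adjusted p from 0.058 to 0.081). The difference from the mixture with LPS was lost without fraction plus LPS replicate 1 (adjusted p = 0.083).

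Irf2 binds the same elements as Irf1 and is known mainly as a repressor of them. It read 679.9, 856 and 788 in vehicle cells, 483, 528 and 492 with the fraction, and 684, 573 and 694 with the mixture. Under LPS the values were 723, 932 and 835 with vehicle, 417, 559 and 387 with the fraction, and 684, 792 and 894 with the mixture. The 6 fraction arrays lay below the 12 others. The fraction lowered Irf2 by 0.62 ± 0.14 on the log2 scale without LPS, a 1.54-fold lower signal, and by 0.88 ± 0.14 with LPS, 1.84-fold lower (adjusted p = 0.0022 and 1.7e-04, limma). Against the mixture with LPS the signal was 1.75-fold lower (log2 difference -0.81 ± 0.14, adjusted p = 2.8e-04). These 3 falls passed under all 19 alternatives run for each. LPS itself gave log2 differences of 0.10, -0.16 and 0.28 in vehicle, fraction and mixture cells, and none passed (adjusted p = 0.64, 0.42 and 0.17).

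Without LPS, the difference of Irf2 between fraction and mixture was -0.37 ± 0.14 (adjusted p = 0.052), and it passed without mixture replicate 2 (adjusted p = 0.035). The mean levels fell from vehicle plus LPS through mixture plus LPS, vehicle and mixture to fraction and fraction plus LPS, and only mixture and fraction did not overlap among neighbours. The probe set is of a kind (_s_at) that can hybridize with transcripts of more than 1 gene.

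Irf3, the factor activated by phosphorylation downstream of Toll-like receptors, passed in 1 of the comparisons. On its brightest probe set the signal was 1320.0, 1279.7 and 1194 with vehicle, 1237, 1232 and 1079 with the fraction, and 1278, 1599.5 and 1465 with the mixture. With LPS it was 1269, 958 and 1108, then 1151, 1084 and 1048, and 1299.7, 1162 and 1198 in the same order of treatments. All neighbouring groups overlapped in order of mean level. LPS gave log2 differences from -0.24 to -0.11 over the 3 treatments, and none passed. The fraction differed from vehicle by -0.10 without LPS, with a 95% interval of -0.32 to 0.12, and by -0.01 with LPS, with an interval of -0.24 to 0.21 (adjusted p = 0.54 and 0.94, limma).

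For Irf3 the fraction was 1.22-fold lower than the mixture without LPS (log2 difference -0.29 ± 0.11, adjusted p = 0.044). That call was lost without any of fraction replicates 1, 2 and 3 or mixture replicates 2 and 3, with adjusted p from 0.056 to 0.19. The LPS difference passed in vehicle cells without vehicle plus LPS replicate 1 (adjusted p = 0.043) and in mixture-treated cells without mixture replicate 1 (adjusted p = 0.047). The brightest Irf3 probe set is of the _x_at kind, which is open to cross-hybridization. The other 3 probe sets were not called in any comparison.

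Irf7 is the interferon-induced member that amplifies interferon production. It read 2896, 5185 and 3621 in vehicle cells and 4702, 8049.9 and 7017 with LPS. In fraction-treated cells it read 1913, 2969 and 2509 without LPS and 3337, 5693 and 4076 with it. In mixture-treated cells it read 2961, 4884 and 3801 without LPS and 5362, 6944 and 7101 with it. LPS arrays lay above the arrays without LPS in fraction and mixture cells, and overlapped them in vehicle cells. LPS raised Irf7 by 0.76 ± 0.24, 0.81 ± 0.24 and 0.76 ± 0.24 on the log2 scale in vehicle, fraction and mixture cells, or 1.70, 1.76 and 1.69-fold (adjusted p = 0.020, 0.011 and 0.026, limma). The fraction lowered it 1.56-fold without LPS (log2 difference -0.64 ± 0.24, adjusted p = 0.047), and gave a signal 1.57-fold below that of the mixture (adjusted p = 0.045). With LPS the corresponding differences were -0.59 ± 0.24 from vehicle and from the mixture (adjusted p = 0.082 and 0.075). The mixture differed from vehicle by 0.01 without LPS, with a 95% interval of -0.50 to 0.51.

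Each of the 5 calls of Irf7 was lost when certain single arrays were left out. With a term for replicate number in the model (a replicate block), all 5 stayed called (adjusted p from 6.3e-07 to 1.5e-05, limma). The falls with the fraction under LPS, not called in the main fit, also passed with the block against vehicle and against the mixture (adjusted p = 6.4e-05 and 4.9e-05, limma). What a replicate number shares is not given in the labels. The LPS call in vehicle cells was lost without vehicle replicate 1 or 3 or vehicle plus LPS replicate 2 or 3 (adjusted p from 0.055 to 0.11). It was lost in fraction-treated cells without fraction replicate 1 or fraction plus LPS replicate 2 (adjusted p = 0.067 and 0.073). In mixture-treated cells it was lost without mixture replicate 1 or 3 or mixture plus LPS replicate 2 or 3 (adjusted p from 0.062 to 0.13). The fall with the fraction without LPS was lost without vehicle replicate 2 or 3 or fraction replicate 1 or 3 (adjusted p from 0.078 to 0.25, log2 difference -0.42 without vehicle replicate 2). The difference from the mixture was lost without fraction replicate 1 or 3 or mixture replicate 2 or 3 (adjusted p from 0.076 to 0.20). With LPS, the fraction passed against vehicle without vehicle plus LPS replicate 1 or fraction plus LPS replicate 2 (adjusted p = 0.023 and 0.028), and against the mixture without fraction plus LPS replicate 2 (adjusted p = 0.026). In order of mean level, the vehicle and mixture groups with LPS came first and the fraction without LPS last, and all neighbours overlapped.

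Irf9 is the DNA-binding subunit of ISGF3. Its signal was 1545, 1711 and 1683 with vehicle, 1092, 1474 and 1215 with the fraction, and 1559, 1635 and 1620.4 with the mixture. With LPS the vehicle arrays read 1981, 2019 and 1996, the fraction arrays 1773, 2434 and 2049, and the mixture arrays 1878, 2181 and 2081. Every LPS array lay above every array without LPS, and the fraction arrays without LPS lay below those of vehicle and mixture. LPS raised Irf9 1.65-fold in fraction-treated cells (log2 difference 0.73 ± 0.11, adjusted p = 3.6e-05, limma), a call kept under all 19 alternatives run. It raised Irf9 1.27-fold in mixture-treated cells (0.35 ± 0.11, adjusted p = 0.027), and the difference in vehicle cells was 0.28 ± 0.11 (adjusted p = 0.062). The fraction lowered Irf9 1.32-fold without LPS (-0.40 ± 0.11, adjusted p = 0.010). With LPS it differed from vehicle by 0.05, with a 95% interval of -0.18 to 0.28.

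The difference between the LPS responses of Irf9 in fraction and vehicle cells was 0.44 ± 0.16 on the log2 scale and did not pass (adjusted p = 0.18). With a replicate block this difference passed (adjusted p = 0.039, limma). Without LPS the fraction was 1.28-fold below the mixture (adjusted p = 0.018). This was lost without fraction replicate 1 or 3 or mixture replicate 2 (adjusted p from 0.051 to 0.11), and the fall against vehicle was lost without fraction replicate 1 (adjusted p = 0.068). The rise in mixture-treated cells was lost without any of the 3 mixture arrays or without mixture plus LPS replicate 2 or 3 (adjusted p from 0.053 to 0.11). The order of mean levels put the 3 LPS groups first, overlapping each other, then vehicle and mixture, then fraction, with gaps after vehicle plus LPS and after mixture.

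Irf5 supports inflammatory cytokine genes in macrophages. It read 4230.2, 4954 and 4297 with vehicle, 3354, 4233 and 3567 with the fraction, and 3626, 4704 and 4242 with the mixture. With LPS it read 3739, 3852 and 3511 with vehicle, 2521, 3343 and 2387 with the fraction, and 3708, 4190.0 and 3883 with the mixture. The 3 arrays with both fraction and LPS were the lowest of the 18. In fraction-treated cells LPS lowered Irf5 1.36-fold (log2 difference -0.44 ± 0.12, adjusted p = 0.0067, limma). With LPS the fraction was 1.36-fold below vehicle (-0.44 ± 0.12, adjusted p = 0.011) and 1.44-fold below the mixture (-0.53 ± 0.12, adjusted p = 0.0027). Without LPS the fraction differed from vehicle by -0.28 ± 0.12, and LPS in vehicle cells by -0.28 ± 0.12 (adjusted p = 0.090 and 0.089), while LPS in mixture cells gave -0.09 ± 0.12.

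The fall of Irf5 with the fraction under LPS was lost without fraction plus LPS replicate 1 or 3 (adjusted p = 0.052 and 0.072), and the difference without LPS passed without fraction replicate 2 (adjusted p = 0.041). The second Irf5 probe set, with signals between 100.8 and 215, was not called in any comparison. Its log2 differences were positive in the 3 comparisons where the brighter probe set was called lower. They were 0.14 ± 0.25 for LPS in fraction-treated cells, 0.32 ± 0.25 for the fraction under LPS and 0.06 ± 0.25 against the mixture under LPS. Averaging both probe sets removed the 3 calls, with adjusted p from 0.16 to 0.77. Centring on kept probe sets removed the LPS call in fraction-treated cells (adjusted p = 0.10), and centring on all removed the fall with the fraction under LPS (adjusted p = 0.066). In order of mean level, only vehicle plus LPS and fraction plus LPS did not overlap among neighbours.

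Irf4, linked to alternative activation of macrophages, was at background. On 1 of its probe sets the signal was 1.85 to 30.9 and below the array median on all 18 arrays. On the other it was 5.38 to 60.3 and reached the median on 1 array. It was left out of the test, and without the filter on low values the LPS difference in vehicle cells was 1.37 ± 0.71 on the log2 scale (adjusted p = 0.22, limma).

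**Figure D2:**
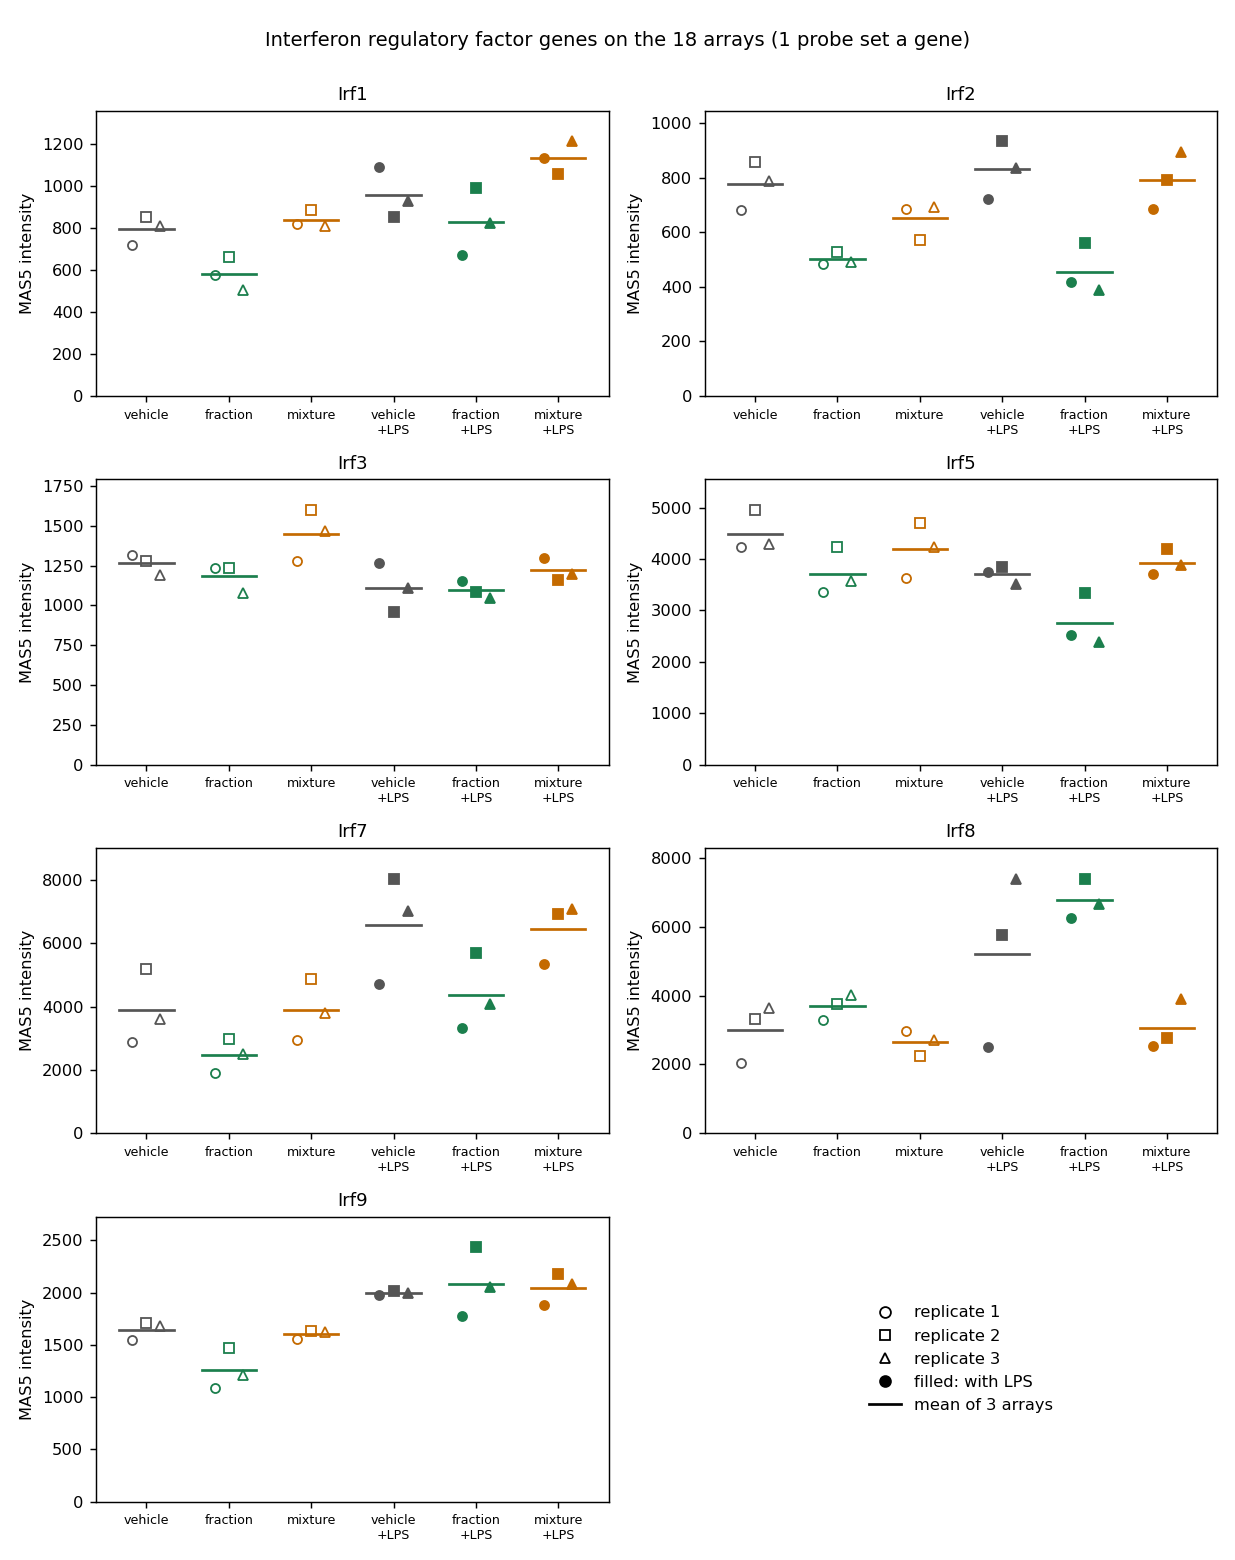
Each panel gives the MAS5 intensity (y axis, linear, from 0) of 1 gene in the 6 groups; points are arrays with a marker for each replicate number, filled with LPS, and lines are means of 3 arrays. The fraction arrays lie below all others for Irf2, and the vehicle plus LPS arrays for Irf8 spread from 2517 to 7388.

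Irf8, which works with the factor Spi1 (PU.1) in the macrophage lineage, was measured by 2 probe sets above background. On the brighter one it read 2045, 3315 and 3638 with vehicle, 3287, 3769 and 4008 with the fraction, and 2977, 2259 and 2715 with the mixture. With LPS it read 2517, 5771 and 7388 with vehicle, 6249.5, 7408 and 6665 with the fraction, and 2529, 2756 and 3899 with the mixture. Replicate 1 of vehicle plus LPS lay within the range of the untreated vehicle arrays, and the other two arrays of that group lay above it. LPS raised Irf8 1.84-fold in fraction-treated cells (log2 difference 0.88 ± 0.28, adjusted p = 0.017, limma), a call lost without fraction replicate 1 or fraction plus LPS replicate 2 (adjusted p = 0.060 and 0.055). In mixture-treated cells the LPS difference was 0.19 ± 0.28, with a 95% interval of -0.39 to 0.77. Under LPS the fraction was 2.25-fold above the mixture (1.17 ± 0.28, adjusted p = 0.0035), with no overlap of arrays and the call kept under all 19 alternatives run.

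Comparisons of Irf8 with the vehicle plus LPS group depended on which arrays were used. LPS in vehicle cells gave 0.71 ± 0.28 (adjusted p = 0.058), and 1.17 ± 0.21 (adjusted p = 2.1e-04) without that array. The mixture with LPS differed from vehicle with LPS by -0.66 ± 0.28 (adjusted p = 0.59), and by -1.12 ± 0.21 (adjusted p = 0.0096) without it. Over all 19 alternatives run, the adjusted p ranged from 2.1e-04 to 0.33 for LPS in vehicle cells and from 0.0096 to 0.98 for the mixture with LPS. The number of genes called for the mixture with LPS rose from 0 to 191 when that array was left out. LPS in vehicle cells also passed without vehicle replicate 3 (0.87 ± 0.31, adjusted p = 0.041). The fraction with LPS differed from vehicle with LPS by 0.51 ± 0.28 (adjusted p = 0.20). Without vehicle plus LPS replicate 1 this was 0.05 ± 0.21 (adjusted p = 0.90), and without replicate 3 of that group 0.83 ± 0.27 (adjusted p = 0.036). Without LPS the fraction differed from vehicle by 0.34 ± 0.28 and from the mixture by 0.48 ± 0.28 (adjusted p = 0.40 and 0.20). The fraction arrays did not overlap the mixture arrays, and that difference passed with only the compared arrays (0.48 ± 0.11, adjusted p = 0.0081) and without the 6 arrays numbered 1 (0.65 ± 0.16, adjusted p = 0.0077).

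The second Irf8 probe set had the same low array. It read 1071, 1571 and 1619 with vehicle, 1766, 2350.4 and 2085 with the fraction and 1397, 1309 and 1213 with the mixture. With LPS it read 1294, 2765 and 3094 with vehicle, 3545, 3674 and 3637 with the fraction and 1243, 1278 and 2005 with the mixture. The 3 arrays with fraction and LPS were the highest of the 18. With every probe set tested, it rose with LPS in vehicle cells (0.67 ± 0.24) and fraction-treated cells (0.82 ± 0.24, adjusted p = 0.048 and 0.015, limma). Under LPS it was higher with the fraction than with vehicle (0.70 ± 0.24) and than with the mixture (1.30 ± 0.24, adjusted p = 0.050 and 6.1e-04). Without vehicle plus LPS replicate 1, the difference between fraction and vehicle under LPS was 0.31 ± 0.19 and did not pass (adjusted p = 0.31), and LPS in vehicle cells gave 1.07 ± 0.19 (adjusted p = 2.7e-04). The LPS call in vehicle cells was lost without replicate 2 or 3 of that group (adjusted p = 0.20 and 0.25). In order of mean level on the brighter probe set, fraction plus LPS was first and mixture last, and all neighbours overlapped.

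**Figure D3:**
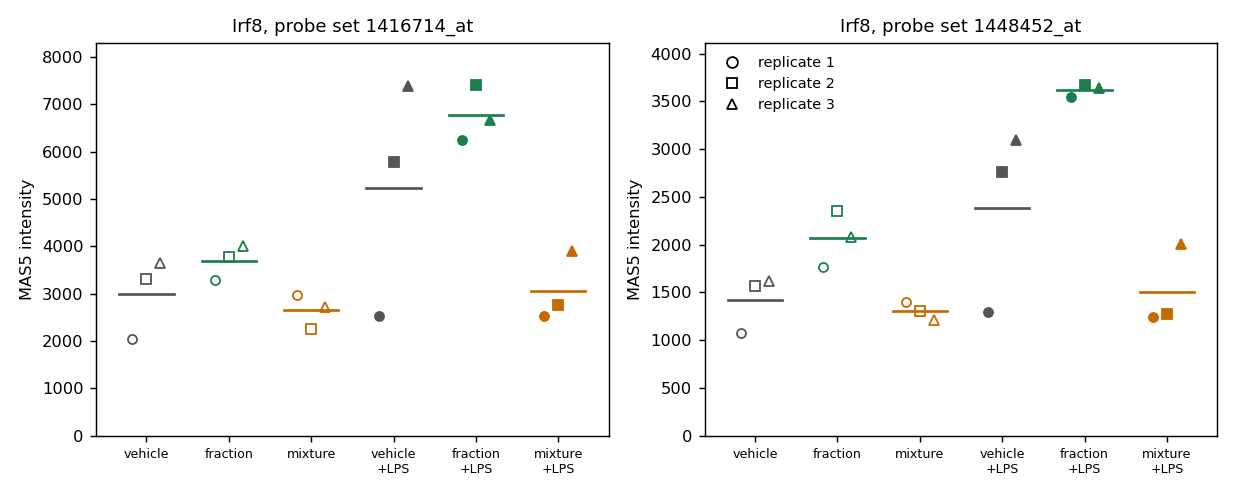
MAS5 intensity (y axis, linear, from 0) of the 2 Irf8 probe sets in the 6 groups, with a marker for each replicate number and lines at means of 3 arrays. On both, replicate 1 of vehicle plus LPS is the low array of its group (2517 and 1294), and the fraction plus LPS arrays lie above the mixture plus LPS arrays.

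Members differed in how they moved together over the 18 arrays. Pearson's r of log2 intensity was 0.854 for Irf7 and Irf9, 0.822 for Irf1 and Irf9 and 0.815 for Irf1 and Irf7. Irf8 ran against Irf3 (r = -0.777) and Irf5 (r = -0.639). These correlations describe arrays that share 6 treatments, so they carry no p. The genes most like Irf7 were Lgals9 (r = 0.969), Sp100 (0.967) and Stat2 (0.964), the ISGF3 subunit. The most like Irf9 were Trim30a (0.954), Mx2 (0.949) and Parp14 (0.948), and the most like Irf1 were Trim21 (0.949), Irgm2 (0.948) and Dtx3l (0.928). Irf2 was nearest to Keap1 (0.946), the repressor of the oxidative stress factor NRF2, then Ndst2 (0.942) and Ap1g1 (0.929). Irf8 was nearest to Bcl6 (0.935), a transcriptional repressor, then Bmp2k (0.924) and Calcrl (0.923). Irf5 was nearest to Tmem107 (0.934), Tax1bp3 (0.931) and Usf1 (0.916), and Irf3 to Snapc3 (0.921), Dhrs13 (0.869) and Pon3 (0.865).

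Counts in the lists that follow stand against these values over all genes: 10.1% rose and 21.8% fell with LPS in vehicle cells (median -0.07), 15.9% and 15.3% with the fraction without LPS (0.02), and 11.1% and 12.7% with LPS (-0.02). Upstream of the family, the list of receptors, adaptors and kinases had 20 tested genes. LPS in vehicle cells raised 11 and lowered 2, with a median log2 difference of 0.44. Ifi204, a DNA sensor, rose by 3.17 ± 0.36, Ikbke, the kinase of Irf3 and Irf7, by 2.57 ± 0.17 and Zbp1, another nucleic acid sensor, by 2.23 ± 0.31 (adjusted p = 1.8e-06, 9.6e-10 and 1.7e-05, limma). The fraction without LPS raised 2 and lowered 6, with a median of -0.21, and the 2 raised of 20 were under the share over all genes. Zbp1 fell by 1.29 ± 0.31 and Ifi204 by 1.32 ± 0.36, while Tlr4, the LPS receptor, rose by 1.18 ± 0.11 (adjusted p = 0.0033, 0.0088 and 1.2e-07). With LPS the fraction raised 4 and lowered 4, among them Tlr3 (-1.23 ± 0.27), the adaptor Tank (1.11 ± 0.18) and Ikbke (0.82 ± 0.17, adjusted p = 0.0021, 1.9e-04 and 0.0012).

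Interferons, their receptors and JAK-STAT proteins gave 10 tested genes, and Ifna4 and Ifng were too dim. In vehicle cells LPS raised 5 and lowered 1, including Ifnb1 (2.81 ± 0.41), Stat2 (1.19 ± 0.25) and Stat3 (0.95 ± 0.15, adjusted p = 2.7e-05, 9.7e-04 and 5.1e-05, limma). Without LPS the fraction lowered 3 and raised 1, and the 1 raised of 10 was under the share over all genes. Stat2 fell by 1.06 ± 0.25, the interferon receptor subunit Ifnar2 rose by 0.82 ± 0.09, and Ifnb1 fell by 1.21 ± 0.41 to a level below the array median (adjusted p = 0.0028, 8.0e-07 and 0.029). Under LPS it raised 2 and lowered 2, with Stat3 at -0.79 ± 0.15, Ifngr2 at -0.65 ± 0.14 and Jak2 at 0.39 ± 0.13 (adjusted p = 5.6e-04, 0.0022 and 0.039). Without vehicle plus LPS replicate 1 the last counts were 0 raised and 3 lowered.

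Of 25 tested interferon-stimulated targets of ISGF3, Irf3 and Irf7, LPS in vehicle cells raised 23 and lowered 0, with a median log2 difference of 1.52. The chemokine Ccl5 rose by 5.72 ± 0.18, the antiviral genes Ifit1 by 2.94 ± 0.23 and Rsad2 by 2.63 ± 0.25 (adjusted p = 5.3e-14, 1.2e-08 and 1.7e-07, limma). The fraction without LPS lowered 20 and raised 0, with a median of -1.05. The chemokine Cxcl10 fell by 2.79 ± 0.18, Ifit1 by 2.55 ± 0.23 and Cmpk2 fell by 2.33 ± 0.35 (adjusted p = 1.2e-09, 7.9e-08 and 4.3e-05). With LPS it lowered 5 and raised 0, with a median of -0.45, and Ifit3 (-1.38 ± 0.40), Ifit1 (-0.97 ± 0.23) and Herc6 (-0.87 ± 0.20) had the largest differences (adjusted p = 0.015, 0.0041 and 0.0032). The interaction of fraction and LPS was called positive for 6 of the 25 and negative for 0, with a median of 0.75 against -0.03 over all genes. Of all 11547 genes, 103 were called positive and 144 negative. The interaction equals the fraction difference with LPS minus that without, so it shares arrays with the 20 falls without LPS. Its 6 calls and those 20 falls are therefore not separate findings. Under LPS the targets still had lower signals with the fraction by the median of -0.45. The median LPS difference of the targets was 2.29 in fraction-treated and 1.52 in vehicle cells. For Irf9 itself the differences were 0.73 and 0.28, and their interaction did not pass in the main fit but passed with a replicate block (adjusted p = 0.039, limma).

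Among 16 tested targets of Irf1 and Irf8, LPS in vehicle cells raised 12 and lowered 0, with a median of 0.67. Gbp2 (3.49 ± 0.76) and Gbp3 (3.33 ± 0.42), guanylate-binding proteins of host defence, and Nos2 (2.99 ± 0.56), the inducible nitric oxide synthase, had the largest differences (adjusted p = 0.0014, 5.2e-06 and 3.7e-04, limma). The mean of Gbp2 was 39.0 and that of Nos2 58.8 in vehicle cells, near or under the array medians. The fraction without LPS raised 1, the inflammatory protease gene Casp1 (0.43 ± 0.11), and lowered 2, the peptide transporter Tap1 (-0.66 ± 0.22, adjusted p = 0.0071 and 0.028) and Gbp2. Gbp2 lay under the array median on every vehicle and fraction array, so its call compares 2 signals not above background and no size is given. With LPS the fraction lowered Nlrc5 (-0.55 ± 0.19), an activator of class I antigen genes, and the immunoproteasome gene Psmb8 (-0.38 ± 0.13, adjusted p = 0.044 and 0.042) and raised 0. These counts of 1 and 2, and of 0 and 2, of 16 were near or under the shares over all genes. Without vehicle plus LPS replicate 1 it lowered 5, and with quantile normalization or median centring 0.

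Of 10 tested genes described downstream of Irf5 or Irf4, LPS in vehicle cells raised 7 and lowered 0. Il6, Il1b and Ccl22 rose by 8.25 ± 0.56, 7.30 ± 0.21 and 6.92 ± 0.53 on the log2 scale (adjusted p = 1.9e-09, 9.7e-15 and 1.0e-08, limma), and Il6 and Ccl22 lay under the array median without LPS. The fraction without LPS raised 4 and lowered 1: the transcription factors Klf4 (3.62 ± 0.20) and Myc (1.28 ± 0.35) rose (adjusted p = 1.1e-10 and 0.0084). Il6 is among those counted as raised, but it lay under the array median on every array of both groups and no size is given. With LPS it raised 4 and lowered 0, including Il23a (2.22 ± 0.37), Il6 (1.74 ± 0.56) and Klf4 (0.81 ± 0.20, adjusted p = 1.9e-04, 0.030 and 0.0047). The alternative activation genes Arg1, Mrc1, Retnla, Chil3 and Pparg were too dim to be tested.

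Among 18 tested partners and regulators, LPS in vehicle cells raised 8 and lowered 4. Socs3, a feedback inhibitor of cytokine signalling, rose by 5.14 ± 0.24, the repressor Atf3 by 2.00 ± 0.24 and the repressor Prdm1 by 1.63 ± 0.39 (adjusted p = 1.5e-11, 3.5e-06 and 0.0029, limma). Prdm1 lay under the array median on all vehicle arrays, so its size is uncertain. Without LPS the fraction raised 4 and lowered 5, with Atf3 at 3.18 ± 0.24, Socs3 at -1.84 ± 0.24 and Socs1 at -1.65 ± 0.44 (adjusted p = 1.0e-08, 8.1e-06 and 0.0075). Socs1 lay under the array median on all fraction arrays, so its size is uncertain too. With LPS it raised 2 and lowered 3, with Atf3 at 1.46 ± 0.24, Socs3 at -0.86 ± 0.24 and Bcl6 at 0.74 ± 0.20 (adjusted p = 2.1e-04, 0.012 and 0.011). These counts of 2 and 3 of 18 were near the shares over all genes. The lists were described by counts and medians and not tested as sets.

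**Figure D4:**
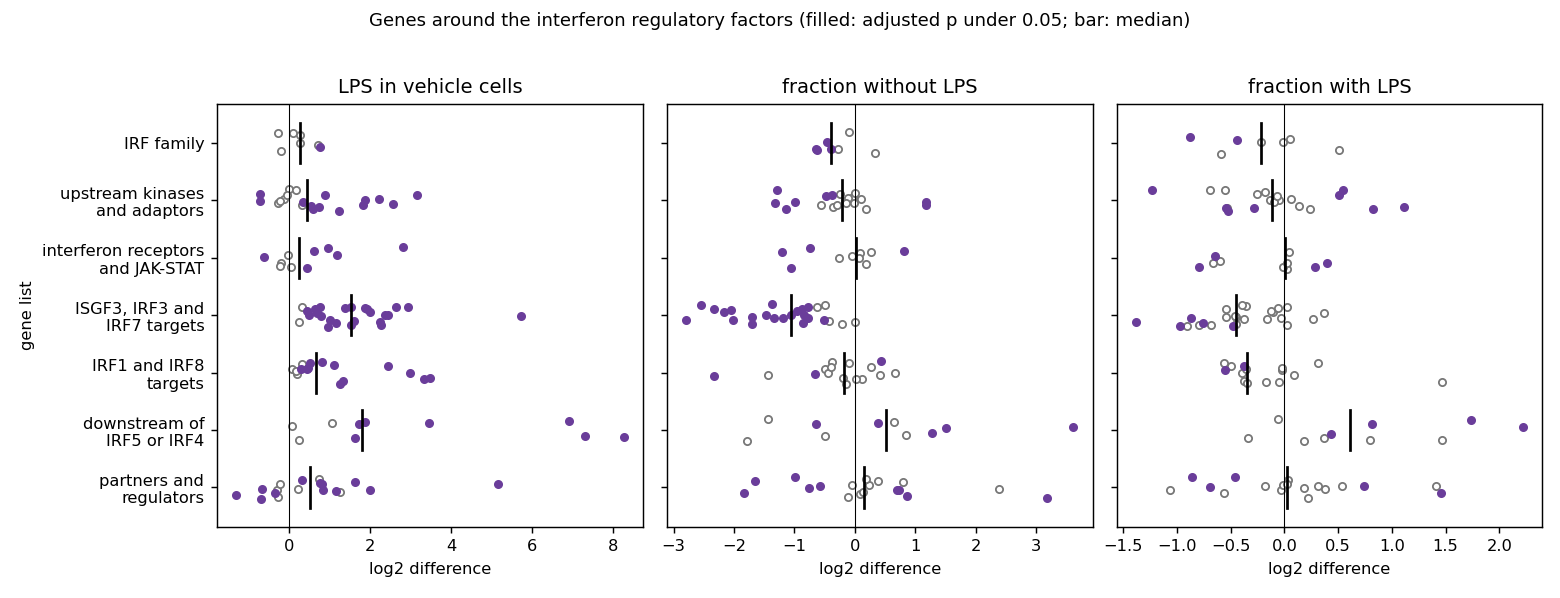
Points are genes of the family and of the 6 lists (rows), placed by log2 difference (x axes, different ranges) for the response to LPS in vehicle cells, then the fraction without and with LPS; filled points have an adjusted p under 0.05 and bars are medians. The row of ISGF3, Irf3 and Irf7 targets has medians of 1.52, -1.05 and -0.45.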

How the data were processed

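RNA of 18 RAW264.7 samples was measured on Affymetrix Mouse Genome 430 2.0 arrays. The authors deposited linear MAS5 signal intensities of 45101 probe sets, the tool being named in the submitters' processing notes and its version not given in the sources used here. Each array had a 2% trimmed mean of 500.0. Raw scans and detection calls were not analysed here. The number of arrays limits the precision.

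Control probe sets (64) were left out, and 34945 probe sets had 1 gene symbol, 932 several and 9160 none. Symbols were updated through Entrez IDs for 34741 and kept as annotated for 204. Intensities under 1 (0.824%) were set to 1 and log2 taken. Probe sets at or above the array median on 3 or more arrays were kept (25612, 12 of the 14 of the family), and the brightest stood for each of 11547 genes. Levels were not compared between probe sets. One model with 6 group means was fitted across all genes in R 4.3.3 by limma 3.58.1 (12 residual degrees of freedom, eBayes with intensity trend), with 11 two-sided contrasts and Benjamini-Hochberg adjustment over all genes. The threshold was an adjusted p under 0.05. Tested on simulated data for the fraction without LPS (11547 genes, 10 simulations, 200 changed), the fit recovered 37.2% of genes at a log2 change of 0.5 and 72.6% at 1, and 5.6% of its calls were false. The simulated noise was independent between arrays, without shared replicate numbers, and the real comparison called 3608 genes. These rates therefore do not carry over to the calls given here.

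The members and lists were chosen with earlier results of these data known. Genes named were all members, the 3 most correlated genes for each tested member, and up to 3 called genes a list with the largest log2 difference for the fraction without and with LPS and for the response to LPS in vehicle cells. The lists were kinases and adaptors upstream of Irf3 and Irf7, interferon receptors and JAK-STAT proteins, targets of ISGF3, Irf3 and Irf7, targets of Irf1 and Irf8, genes downstream of Irf5 or Irf4, and partners and regulators. Marker genes served to check the cell type. Alternatives were quantile normalization, a replicate block, log2 of intensity plus 32, median centring, no filter, a 75th percentile filter, low signals set to the array median, no eBayes trend, only compared arrays, every probe set, the mean of probe sets, and arrays left out. Centring on kept probe sets, the recounts of the lists and the second Irf8 probe set without single arrays were added after seeing the data. Promoters were matched by symbol to RefSeq windows.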

Additional observations from a re-analysis of the deposited data

How the results depend on the processing

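The 7 tested members in 11 comparisons gave 23 called differences, of which 7 stayed called under every one of 19 alternatives and 9 with each array left out in turn. Over all members, comparisons and alternatives, 1386 values kept direction and side of the threshold, 72 lost and 39 gained a call, and 50, over 20 differences, changed sign. No called difference changed sign, and no value that changed sign passed the threshold. The cause of these changes was not tested.

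Members called for LPS in vehicle cells numbered 1, and 4 with quantile normalization or with centring on kept probe sets (added after seeing the data), 2 with the 75th percentile filter or without the 6 arrays numbered 1, and 0 with median centring or without the eBayes trend. For the fraction with LPS 2 were called, and 1 with median centring or with the mean of a gene's probe sets. For the mixture with LPS 0 were called, and 1 (Irf8) without the 6 arrays numbered 1. For fraction against mixture without LPS 4 were called, 1 with median centring and 2 with no filter, no trend, every probe set or the mean of probe sets. With each array left out the counts ranged from 0 to 3 for LPS in vehicle cells, 3 to 5 in fraction cells and 0 to 3 in mixture cells. They ranged from 2 to 5 and 1 to 3 for the fraction without and with LPS, 0 to 0 and 0 to 1 for the mixture, and 1 to 4 and 3 to 5 for fraction against mixture. The cause was not tested.

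The labels do not say what a replicate number shares. Of 45 pairs of same-numbered arrays in different groups, 9 had deviations that correlated above 0.1 (range 0.02 to 0.17, median 0.09, against -0.04 for different numbers), and no pairing was assumed, although all 18 arrays correlated best with their own number. With a replicate block, 4 members were called for LPS in vehicle cells (Irf5, Irf7, Irf8 and Irf9, the added ones with adjusted p from 0.0094 to 0.015) and 1 for the interaction of fraction and LPS (Irf9, adjusted p = 0.039). The replicate block also called Irf5 for the fraction without LPS (adjusted p = 0.0096), Irf7 for the fraction with LPS against vehicle and mixture (6.4e-05 and 4.9e-05) and Irf2 for fraction against mixture without LPS (0.029).

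Beside the arrays left out and the settings given with the members, other settings ended calls. Irf7 lost the fall with the fraction without LPS with no filter, low signals set to the median, no trend, every probe set or the mean of probe sets (adjusted p from 0.050 to 0.099), its LPS call in vehicle cells with median centring or no trend (0.054 and 0.052) and that in mixture cells with no trend (0.066). The Irf3 call against the mixture without LPS was lost with median centring, no filter, no trend, only compared arrays, every probe set or the mean of probe sets (0.057 to 0.43), and that of Irf7 with median centring, no filter, no trend, every probe set or the mean of probe sets (0.053 to 0.095). Median centring ended the Irf9 calls for LPS in mixture cells (0.078) and against the mixture without LPS (0.068), the latter also lost without the 6 arrays numbered 1 (0.085). Without the 6 arrays numbered 1, Irf1 lost LPS in mixture cells (0.057) and the difference from the mixture with LPS (0.13), and Irf5 the fall with the fraction under LPS (0.089).

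Values that changed sign with median centring were Irf2 for LPS in vehicle cells (-0.035), Irf1 and Irf7 for the mixture without LPS (-0.030 and -0.11), Irf7 for the mixture with LPS (0.059), Irf9 for fraction against mixture with LPS (-0.049) and the interactions of Irf3 and Irf7 with the mixture (0.12 and 0.16). With centring on kept probe sets they were Irf2 and Irf3 for LPS in fraction cells (0.0041 and 0.051), Irf5 for LPS in mixture cells (0.0022) and Irf9 for fraction against mixture with LPS (-0.010). With the mean of probe sets they were Irf5 for LPS in mixture cells (0.0007), Irf3 for the fraction with LPS (0.056), and the interactions of Irf5 with the fraction (0.080) and Irf3 with the mixture (0.054). Without the 6 arrays numbered 1 they were Irf1 and Irf3 for the fraction with LPS (0.019 and 0.049), Irf7 for the mixture without LPS (-0.0083) and the interaction of Irf8 with the fraction (-0.057). Quantile normalization gave Irf7 0.0031 for the mixture with LPS.

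With each array left out in turn, values that changed sign spanned these ranges. They ran from -0.19 to 0.0002 for Irf5 and LPS in mixture cells. For the fraction with LPS they ran from -0.12 to 0.086 (Irf3) and -0.068 to 0.16 (Irf9). For the mixture without LPS they ran from -0.19 to 0.23 (Irf7) and -0.40 to 0.016 (Irf8), and with LPS from -0.17 to 0.028 (Irf2), -0.23 to 0.16 (Irf7) and -0.016 to 0.092 (Irf9). For fraction against mixture with LPS the range was -0.10 to 0.13 (Irf9). Interactions with the fraction ran from -0.019 to 0.18 (Irf3), -0.18 to 0.24 (Irf7) and -0.29 to 0.49 (Irf8), and with the mixture from -0.15 to 0.052 (Irf3) and -0.23 to 0.19 (Irf7). Over these arrays left out in turn, 0 members were called for either interaction.

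Over all genes, median centring called 1848 genes for LPS in mixture cells and 1761 for the fraction with LPS, against 2844 and 2746. For the mixture without LPS 0 genes were called, and 3 without mixture replicate 1 and 5 without the 6 arrays numbered 1. For the mixture with LPS 0 were called, and 2, 61 and 191 with the mean of probe sets, without the 6 arrays numbered 1 and without vehicle plus LPS replicate 1. The interaction of fraction and LPS called 247 genes, and from 86 (median centring) to 467 (replicate block). That of the mixture called 0, and 2 without the 6 arrays numbered 1 and 10 without vehicle plus LPS replicate 1.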

Other observations

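Replicate numbers showed in the members' levels. Irf7 and Irf9 were lowest on replicate 1 in 6 of 6 groups, and Irf8 in 5 of 6. The mean deviation of replicate 1 from its group mean was -0.36 for Irf7, -0.30 for Irf8 and -0.11 for Irf9 on the log2 scale. What these arrays share is not given in the labels, and its part in the results was not tested.

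Corepressors named for their binding to Irf2 moved apart. With the fraction without LPS, Irf2bp1 fell by 0.58 ± 0.10 (SE, limma, adjusted p = 1.8e-04) and Irf2bp2 rose by 0.73 ± 0.14 (adjusted p = 6.9e-04) on the log2 scale. Irf2bpl differed by 0.38 ± 0.15 and did not pass (adjusted p = 0.060). These genes were picked after their values were seen.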
